A study of Mus musculus with 47 samples.

Results

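The genes followed here carry out mitosis: 50 of the 21000 genes counted in each library were followed through mouse dendritic cell (DC) development. The members were chosen by name, as a list of known mitosis genes, but with earlier results of these data known. Every listed symbol was present in the count tables. They fall into 9 roles: 6 cyclins, Cdk1 and their regulators, 7 mitotic kinases and chromosomal passengers, 4 spindle checkpoint genes, 5 genes of the anaphase-promoting complex and cohesin release, 10 centromere and kinetochore genes, 8 kinesin motors, 4 spindle microtubule proteins, 3 cytokinesis genes and 3 genes of chromosomes and DNA.

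Cells enter mitosis when cyclin B activates the kinase Cdk1, and leave it when Cdc20 directs the anaphase-promoting complex to destroy cyclin B and securin. Between these steps, kinetochores built on centromeres attach to spindle microtubules, the checkpoint proteins delay anaphase until all are attached, and kinesins, Prc1 and Anln reshape the spindle and the cell for division. Most of these mRNAs are made late in the cell cycle, under promoters bound by MuvB complexes, so in a sorted population their level follows both how many cells divide and how much RNA each holds. Dendritic cell progenitors divide as they mature, and mature DCs are largely non-dividing. The transcription factor IRF8 is required for the cDC1 lineage.

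RNA from 1500 to 10000 sorted cells per library was sequenced in 47 libraries of 17 groups. Along the path to conventional DCs, the monocyte-dendritic cell progenitor (MDP) comes first and the common DC progenitor (CDP) next. The precursor pre-cDC1 then matures into cDC1, and pre-cDC2 into cDC2. Primary wild-type (WT) cells were MDP, CDP and pre-cDC1 from bone marrow, and pre-cDC1 and cDC1 from spleen. Cultured WT cells, grown from bone marrow with the cytokine Flt3L, were MDP, CDP, pre-cDC1, cDC1, pre-cDC2 and cDC2. Cultured pre-cDC1 also came from mice lacking an Irf8 enhancer: d+32, deficient in the enhancer 32 kb from the gene, d+32het, heterozygous for that loss, and d+56het, heterozygous for loss of the enhancer at 56 kb. Cultured cDC1 prepared from Lin- cells were d+56 or d+32 with retroviral IRF8, set against WT with MSCV, the retroviral vector. No enhancer-deficient cDC1 without IRF8 and no WT cDC1 with added IRF8 entered, so the deletion and the added IRF8 cannot be told apart in those comparisons. Of the groups, 15 held 3 libraries, and primary CDP and splenic cDC1 held 1. The design text speaks of duplicates while the labels number 3, and whether replicates are biological is not stated. Each p-value thus reflects library-to-library spread that may be partly technical. Every replicate 3, and the single primary CDP library, belongs to a separate, later block of sample numbers. What sets that block apart is not stated.

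Promoter sequences were available for 43 of the 50 members. The cell cycle homology region (CHR) is the site by which MuvB complexes bind mitotic promoters, and the CCAAT box is bound by NF-Y. Over 250 bases before to 50 bases after the start, the hexamer TTTGAA of the CHR, on either strand, was present in 33 of 43 members (76.7%) and in 4893 of 27025 promoters of all genes (18.1%). CCAAT, on either strand, was in 31 of 43 (72.1%) against 37.9% of all promoters, and both were in 26 (60.5%) against 7.1%. Matches to the 2 motifs could overlap at their end letters and were counted separately. Of 42 promoters of DNA replication genes, 16.7% held TTTGAA and 59.5% held CCAAT. The 150 bases before the start are shown for 3 members with both motifs (Cdc20, Cdk1 and Top2a) and for the members whose levels differed least from bone marrow to spleen or went the other way (Bub3 and Pttg1, chosen after their values were seen). Sequences are from RefSeq on GRCm38.p6, written 5′ to 3′ on the gene's strand, with capitals marking every match to either motif on either strand.
Cdc20 (chr4:118437344-118437493, minus strand): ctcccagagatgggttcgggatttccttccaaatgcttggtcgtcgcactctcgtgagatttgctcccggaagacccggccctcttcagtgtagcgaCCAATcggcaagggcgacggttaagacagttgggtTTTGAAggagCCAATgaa
Cdk1 (chr10:69352913-69353062, minus strand): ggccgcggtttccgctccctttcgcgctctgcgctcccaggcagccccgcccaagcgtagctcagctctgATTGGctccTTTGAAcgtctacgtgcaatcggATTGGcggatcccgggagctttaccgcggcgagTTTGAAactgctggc
Top2a (chr11:99024190-99024339, minus strand): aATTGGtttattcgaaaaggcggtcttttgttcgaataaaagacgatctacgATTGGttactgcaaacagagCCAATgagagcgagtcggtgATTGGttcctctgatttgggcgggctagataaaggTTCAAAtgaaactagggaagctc
Bub3 (chr7:131560220-131560369, plus strand): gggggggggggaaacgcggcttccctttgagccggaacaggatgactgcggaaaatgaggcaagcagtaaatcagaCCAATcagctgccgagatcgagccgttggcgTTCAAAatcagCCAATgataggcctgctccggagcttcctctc
Pttg1 (chr11:43425982-43426131, minus strand): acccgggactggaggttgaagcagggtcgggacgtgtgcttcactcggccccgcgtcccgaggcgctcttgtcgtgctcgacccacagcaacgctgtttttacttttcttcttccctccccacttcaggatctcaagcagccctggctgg

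Within these bases the hexamer match begins 18 bases before the start in Cdc20, 23 in Top2a and 43 in Bub3, and copies lie 71 and 15 bases before it in Cdk1. The Pttg1 window held no match to either motif, which says only that these letters are not in it. The window lies inside the listed span of Pttg1 (11:43420244 to 43427463), so a start further upstream was not covered.

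**Figure D1:**
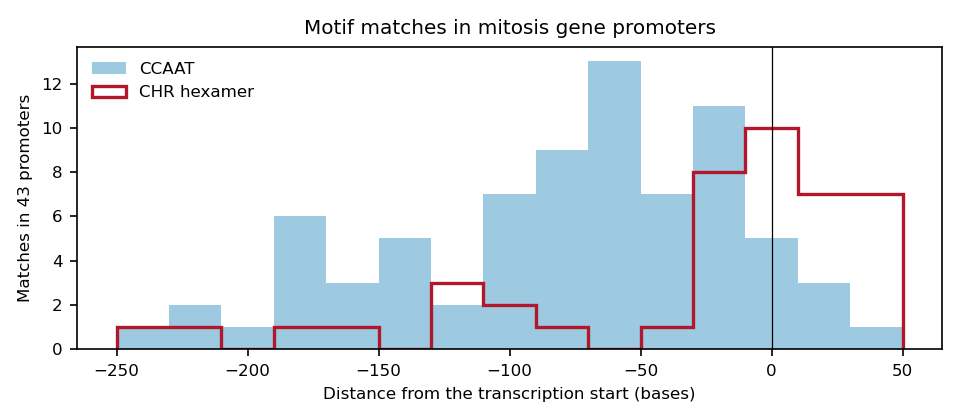
Number of matches to CCAAT (filled) and to the CHR hexamer TTTGAA (red outline), on either strand, in the promoters of 43 mitosis genes, by distance in bases from the transcription start (vertical line). The hexamer matches lie mostly near and after the start, and the CCAAT matches mostly upstream of it.

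Library totals ran from 14660655 to 43084069 counts (median 28884353), levels are library-size normalised counts (CPM) scaled by TMM, and all 50 members passed the low-count filter in every comparison. Reads carried no molecular identifiers, so limits set from counts cover counting error only, and without strand information a member's reads cannot be told apart from those of an overlapping or antisense gene. Irf8 itself was lower than in WT pre-cDC1 in d+32 (log2 -2.80 ± 0.11), d+32het (-1.48 ± 0.10) and d+56het (-1.79 ± 0.10), with edgeR adjusted p of 1.23e-06, 0.000249 and 1.95e-05. Conflicting names were found on 4 libraries: replicates 1 and 2 titled cultured cDC1 are named pre-cDC2 by file, and those titled pre-cDC2 are named cDC1. Their 6 cDC1 markers summed to 1015 and 1037 CPM in the first pair and 2878 and 2908 in the second, against 2494 in cDC1 replicate 3 and 1771 in pre-cDC2 replicate 3. Their 6 cDC2 markers summed to 1469 and 2105 CPM in the first pair and 76.0 and 136 in the second. In cDC1 replicate 3 that sum was 188, and in pre-cDC2 replicate 3 it was 858. Both sums went with the file names and against the titles. All 4 libraries were left out of the tests, and cultured cDC1 and pre-cDC2 stand on replicate 3 alone. The markers of the library labelled pre-cDC2 replicate 3 also go against its label: it held 1771 CPM of cDC1 markers and 858 of cDC2 markers, and against cultured CDP all 6 cDC1 markers were higher and 0 of 6 cDC2 markers were (edgeR; 2 at an unadjusted p under 0.05). The enhancer-deficient pre-cDC1 libraries differed from cultured WT pre-cDC1 in both marker sums. Their summed cDC1 markers were 257 to 582 CPM against 1528 to 1849 in cultured WT pre-cDC1, and their 6 cDC2 markers 969 to 2110 against 268 to 303. WT pre-cDC1 from bone marrow held 375 to 414 and 1202 to 1412 CPM, within the ranges of the enhancer-deficient libraries.

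The members' summed level was lowest in pre-cDC1 of the spleen, and among groups of 3 libraries it was highest in pre-cDC1 of the bone marrow. Their summed level was 7104 ± 647 CPM in primary MDP (SD, n = 3), 8751 ± 1085 for pre-cDC1 from bone marrow and 1389 ± 450 for those from spleen. The single primary CDP library held 10264 CPM and the single splenic cDC1 library 3339. The place of primary CDP depended on the measure: as a percentage of cultured WT pre-cDC1 it was 226 by the sum, above the 192 of bone marrow pre-cDC1, and 149 by the median of log2 CPM, below their 175. In Flt3L culture the sum was 6301 ± 163 CPM in MDP, 6212 ± 185 in CDP, 4548 ± 276 in WT pre-cDC1 and 3835 ± 765 in cDC2 (n = 3 each), and 4425 in cDC1 replicate 3 and 7765 in the library labelled pre-cDC2 replicate 3. Cultured MDP (6133.8 to 6460.3) and CDP (6010.5 to 6373.5) overlapped library by library, as did cultured WT pre-cDC1 (4375 to 4866) and cDC2 (3333 to 4715), while CDP and WT pre-cDC1 did not overlap. Among the 4 libraries with conflicting names, those titled cDC1 held 7516 and 6324 CPM and those titled pre-cDC2 held 5350 and 5124. Prc1, Racgap1, Cenpa and Tpx2 alone made up 31.3% to 49.7% of the sum, so single members are given below. This share is of counts not corrected for transcript length. Per exonic base these genes were also the highest members, at 3.29, 2.09, 2.22 and 2.48 mean counts. They have 11, 7, 8 and 8 RefSeq transcripts. In bulk RNA, fewer dividing cells and less of an mRNA per dividing cell cannot be told apart.

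**Figure D2:**
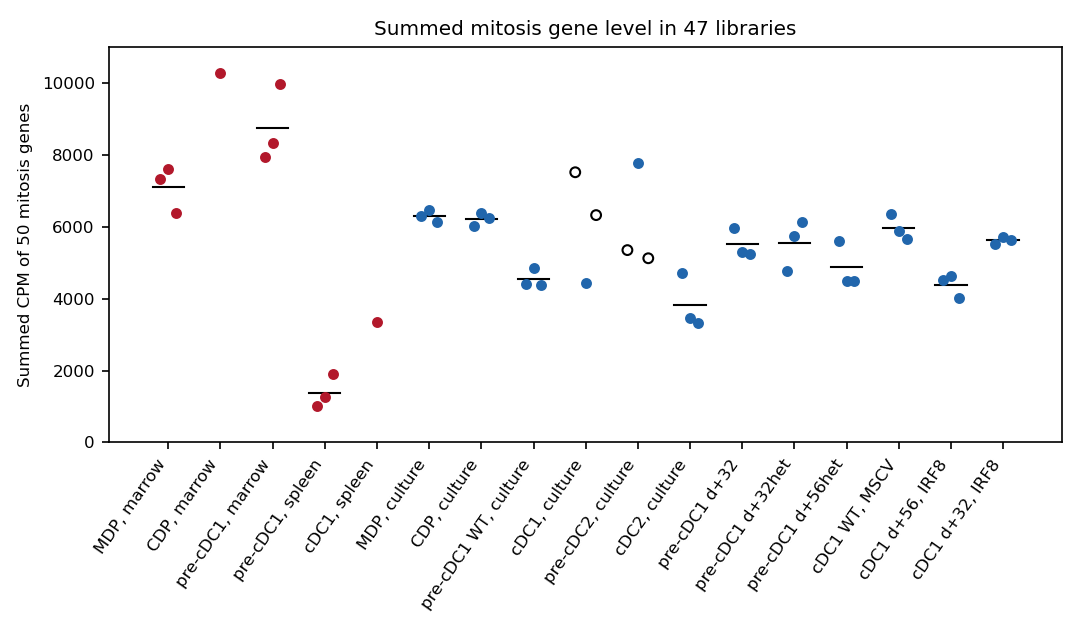
Summed CPM of the 50 mitosis genes in each of 47 libraries, by group. Red points are primary cells, blue points cultured cells, open circles the 4 libraries with conflicting names, and lines the group means. The 3 splenic pre-cDC1 libraries (1021 to 1891 CPM) lie below all other libraries.

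Over the 13 groups of 3 libraries with agreeing names, 48 of 50 members had their lowest mean in splenic pre-cDC1 and 37 had their highest in bone marrow pre-cDC1. The ratio of highest to lowest group mean had a median of 7.38 and passed 5-fold for 36 members. Members differed widely in this range. Pif1, a DNA helicase, spanned 66.9-fold, Cenpf, a kinetochore protein, 40.3-fold, Anln, which scaffolds the cleavage furrow, 27.6-fold, and Kif20b, a kinesin of late mitosis, 26.9-fold. The splenic means under these ratios rest mostly on replicate 3. Over splenic replicates 1 to 3, Pif1 held 0, 0 and 3.49 CPM and Cenpf 0, 0 and 4.86. Anln held 0.0593, 0 and 6.15 CPM there, and Kif20b 0, 0.423 and 14.3. Bub3, a checkpoint protein that also works outside mitosis, spanned 1.89-fold. Cks2, a small Cdk1-binding subunit, spanned 2.59-fold and was lowest in cultured cDC2. Pttg1, which encodes securin, the inhibitor of sister chromatid separation, spanned 3.15-fold and was the 1 member highest in splenic pre-cDC1.

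**Figure D3:**
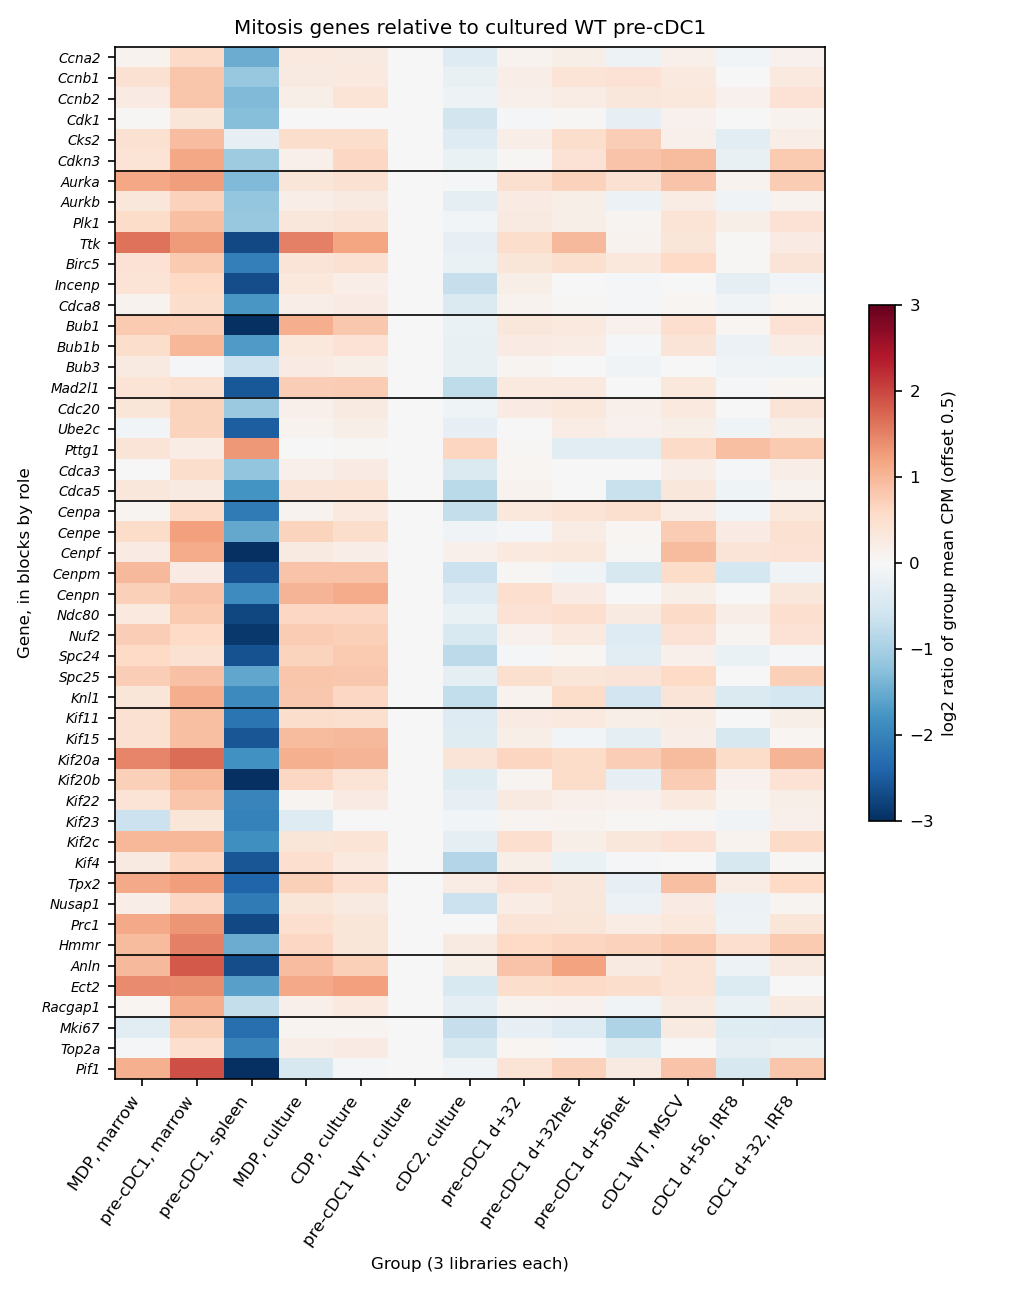
Level of each mitosis gene in 13 groups of 3 libraries, as the log2 ratio of the group mean CPM to that of cultured WT pre-cDC1 with an offset of 0.5, genes in blocks by role. Bone marrow pre-cDC1 is red for most genes and splenic pre-cDC1 blue for all but Pttg1.

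Splenic pre-cDC1 were compared with bone marrow pre-cDC1, the same labelled stage in 2 organs. By edgeR's quasi-likelihood test with Benjamini-Hochberg adjustment over all 13161 genes, 17 members were lower in spleen, where 1.28% of all genes were lower, and 1 was higher, where 0.600% of all genes were. At an unadjusted p under 0.05, 39 members were lower and 1 higher, beside 1068 and 767 of the 13161 genes. The members' median log2 fold change was -2.89, against -0.02 for all genes, and 49 of 50 fold changes were negative. The members called lower came from every role but that of the anaphase-promoting complex and cohesin release: 4 of 6 cyclins and regulators, 3 of 7 kinases and passengers, 1 of 4 checkpoint genes, 4 of 10 kinetochore genes, 2 of 8 kinesins, and 1 each of the spindle microtubule, cytokinesis and chromosome groups.

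Mki67, the chromosome surfactant used as a proliferation marker, held 181, 170 and 153 CPM in the bone marrow libraries and 11.3, 6.67 and 44.1 in the splenic ones. Top2a, the topoisomerase that untangles chromosomes, held 172, 162 and 130 CPM in bone marrow and 18.8, 23.6 and 38.1 in spleen. The groups did not overlap for either gene, and splenic replicate 3 was the highest of its group for both. Top2a fell by 2.54 ± 0.30 (log2 fold change ± SE; edgeR adjusted p = 0.00623). That of Mki67, -3.01 ± 0.65, was not called (adjusted p = 0.0682). Ccnb1, cyclin B1, held 65.9, 66.3 and 49.9 CPM in bone marrow and 12.98, 21.7 and 11.04 in spleen, and fell by 2.02 ± 0.28 (edgeR adjusted p = 0.0142). Cdk1 itself held 41.4, 36.7 and 29.1 CPM in bone marrow against 13.2, 8.89 and 11.4, and fell by 1.70 ± 0.25 (edgeR adjusted p = 0.0169). The smallest adjusted p was that of Nusap1, which bundles spindle microtubules, with means of 263 CPM in bone marrow and 38.9 in spleen (log2 -2.77 ± 0.29, edgeR adjusted p = 0.00401). Spc25 of the Ndc80 complex had means of 257 and 47.1 CPM (-2.47 ± 0.27, edgeR adjusted p = 0.00425). Racgap1, a centralspindlin subunit, went from 971 to 278 CPM (-1.82 ± 0.20, edgeR adjusted p = 0.00425), and Ccna2, cyclin A2, from 79.2 to 18.4 CPM (-2.12 ± 0.24, adjusted p = 0.00479).

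Pttg1 went the other way. It held 44.3, 42.1 and 41.1 CPM in bone marrow pre-cDC1 and 110, 83.7 and 75.0 in spleen, without overlap, and rose by 1.05 ± 0.21 (edgeR adjusted p = 0.0469). The call was kept without splenic replicate 3 (edgeR adjusted p = 0.0197) and lost on leaving out any other of the 6 libraries, where the adjusted p ran from 0.0552 to 0.217 and the log2 fold change from 0.89 to 1.11. The single splenic cDC1 library held 83.5 CPM of Pttg1. Bub3 held 210, 226 and 329 CPM in bone marrow and 150, 158 and 192 in spleen, a log2 fold change of -0.63 that was not called.

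Splenic replicates 1 and 2 stood apart in how many genes were detected, and replicate 3 did not. Genes with any count numbered 10009, 9901 and 11826 in splenic replicates 1 to 3 against 11503 to 12099 in the other primary libraries, and 17, 9 and 0 members had 0 counts. A count of 0 allows up to 0.178 CPM in replicate 1 and 0.159 in replicate 2, by a limit of 3 counts. Prc1, which crosslinks the central spindle, held 0 CPM to 3 digits in splenic replicates 1 and 2 and 308 in replicate 3, against 1259, 1478 and 2302 in bone marrow. The lowest fold change was that of Pif1 (log2 -5.99 ± 1.55, edgeR adjusted p = 0.131), not called, with 0 CPM in the first 2 splenic libraries and 3.49 in the third. Summed B cell markers were 8.597, 184 and 0.0783 CPM in the splenic libraries against at most 1.48 in bone marrow pre-cDC1. All 4 B cell markers had positive fold changes (median log2 6.68). By edgeR 0 were called, and 2 were higher at an unadjusted p under 0.05. The sums of other marker lists differed without overlap between bone marrow and spleen. Summed neutrophil and granule markers were 58.8 to 89.8 CPM in bone marrow and 3.13 to 11.4 in spleen (1 of 5 called lower), and monocyte and macrophage markers 406 to 745 and 138 to 305 (1 of 5 lower). Summed cDC1 markers were 375 to 414 CPM in bone marrow and 641 to 1430 in spleen (1 of 6 called higher). Summed progenitor markers were 527 to 586 and 688 to 1000.2 (1 of 5 called higher). Single genes of 2 of these lists were split. Of the monocyte and macrophage markers, 3 of 5 had positive fold changes (median log2 0.03), and of the progenitor markers 3 of 5 had negative ones (-0.03). The part of these marker differences in the result was not tested. Without splenic replicate 3 the count of called members was 32, without bone marrow replicate 1 it was 9 and without bone marrow replicate 2 it was 8. With replicate 3 of all primary groups left out, a choice made after seeing the data, 26 members were called, all lower. Shares of all genes called were computed for the main edgeR fits only, so counts from other fits or DESeq2 have none beside them.

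DNA replication genes, which act before mitosis, were listed for comparison. Of 52, 6 were lower in spleen and 0 higher by edgeR, 30 lower and 0 higher at an unadjusted p under 0.05, with a median log2 fold change of -1.23. Tk1, thymidine kinase, fell by 2.05 ± 0.25 (edgeR adjusted p = 0.00692). Of 59 further mitosis genes outside the members, 7 were lower, with a median of -2.80. Nek2, a centrosomal kinase, fell by 2.22 ± 0.21 (edgeR adjusted p = 0.00296).

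Within bone marrow, pre-cDC1 were compared with the earlier MDP. Of the members, 1, Racgap1, was higher (5.61% of 13161 genes were) and 0 were lower (2.64%), by edgeR. The counts at an unadjusted p under 0.05 were 2 and 0, beside 1720 and 1167 of all genes. DESeq2 called 1 member. The main fit shared its estimate of the spread with the other primary libraries, splenic ones included. More members were called with only bone marrow MDP and pre-cDC1 in the fit, a count given below with the alternatives. The median log2 fold change was 0.37 against 0.00 for all genes, and 40 of 50 were positive. Racgap1 held 460, 553 and 417 CPM in MDP and 867, 941 and 1106 in pre-cDC1, without overlap, and rose by 1.01 ± 0.19 (edgeR adjusted p = 0.0173). The call was lost without MDP replicate 1 (adjusted p = 0.0800) or 3 (0.0711), without pre-cDC1 replicate 2 (0.0634), or with replicate 3 of all primary groups left out (0.107). Mki67, with the highest fold change, was 76.0, 89.6 and 79.1 CPM in MDP, below all 3 pre-cDC1 libraries (log2 1.02 ± 0.61, edgeR adjusted p = 0.381). The lowest was Cenpm, a centromere protein (-0.76 ± 1.67, adjusted p = 0.872). The DNA replication list had 2 lower members, Mcm7 and Tipin, and a median of -0.54, opposite in sign to that of the mitosis genes.

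Cultured and primary cells of the same labelled stage were then compared. At the MDP stage 2 members were lower in culture (2.90% of 12043 genes) and 0 higher (5.38%), with a median log2 fold change of -0.06 against 0.00 for all genes. Pif1 fell by 1.63 ± 0.37 (edgeR adjusted p = 0.0210) and Aurka, the centrosomal Aurora kinase, by 0.85 ± 0.23 (adjusted p = 0.0485). The highest fold change was that of Kif15, a spindle kinesin (0.44, not called). At an unadjusted p under 0.05, 10 were lower and 3 higher, beside 1170 and 1638 of the 12043 genes. DESeq2 called 5 lower and 1 higher. Both calls depended on single libraries: the count was 0 without primary MDP replicate 1 or without cultured MDP replicate 1 or 3, and 1 without primary or cultured MDP replicate 2. It was 3 without primary MDP replicate 3, and 6 with replicate 3 of all primary groups left out.

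At the pre-cDC1 stage 41 of 50 members were lower in culture than in bone marrow, where 11.2% of 12043 genes were lower, and 0 were higher (10.7% of genes), also at an unadjusted p under 0.05; DESeq2 called 44. The median log2 fold change was -0.84 against -0.03 for all genes, and 34 of the 41 calls held whichever library was left out. All 7 kinases and passengers were called, as were 9 of 10 kinetochore genes and 7 of 8 kinesins. So were all 4 spindle microtubule, 3 cytokinesis and 3 chromosome genes. Fewer were called of the checkpoint genes (2 of 4) and of the anaphase-promoting complex and cohesin release (2 of 5). Of the cyclins and their regulators, Ccna2, Ccnb1, Ccnb2 and Cdkn3 were called. Cdk1 (log2 -0.37) and Cks2 (-0.95) were not. The roles were not tested against each other. Anln held 13.4, 20.1 and 13.5 CPM in cultured WT pre-cDC1 and 52.8, 60.5 and 57.7 in bone marrow, and fell by 1.86 ± 0.19 (edgeR adjusted p = 0.000115). Hmmr, a spindle assembly factor, held 21.8, 18.5 and 15.8 CPM in culture and 51.5, 55.8 and 55.4 in bone marrow, and fell by 1.53 ± 0.16 (adjusted p = 0.000129, edgeR). Neither gene's groups overlapped.

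Among the anchors of each role, Plk1, the Polo kinase of mitotic entry, held 24.3, 27.4 and 24.1 CPM in culture and 50.05, 45.8 and 47.9 in bone marrow. Bub1b, the checkpoint protein BubR1, held 40.2, 44.7 and 41.6 CPM against 94.0, 87.6 and 72.8. Kif11, the motor that pushes spindle poles apart, held 42.1, 48.7 and 44.1 CPM against 88.4, 89.1 and 74.6. All 3 were called lower, by 0.92 ± 0.12, 1.00 ± 0.12 and 0.90 ± 0.14 in log2 (edgeR adjusted p = 0.000541, 0.000299 and 0.000998). Cenpe, a kinetochore kinesin, fell by 1.24 ± 0.14 (edgeR adjusted p = 0.000147), Ect2, which activates RhoA for cytokinesis, by 1.40 ± 0.16 (0.000186), and Kif20a, a central spindle kinesin, by 1.67 ± 0.20 (0.000238). The largest fall was that of Pif1, by 1.97 ± 0.37 (0.00378). Bub3 was level, at 245, 278 and 261 CPM in culture and within the bone marrow range (log2 0.04 ± 0.18, not called).

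The DNA replication list did not move with the mitosis genes here: 3 of 52 were lower, 2 higher, and the median was 0.01. Of the 59 further mitosis genes 43 were lower, with a median of -0.75. Foxm1, a transcription factor of mitotic genes, fell by 1.27 ± 0.13 (edgeR adjusted p = 0.000108). Of 34 genes of cell cycle entry and its regulators, 9 were lower and 2 higher by edgeR. Cdkn1a, the inhibitor p21, rose by 2.18 ± 0.25 (edgeR adjusted p = 0.000224) and Myc fell by 1.32 ± 0.29 (0.00789). Cell type markers differed as well: summed cDC1 markers were 1528 to 1849 CPM in culture and 375 to 414 in bone marrow, summed cDC2 markers 268 to 303 and 1202 to 1412, and summed erythroid markers at most 0.105 and 5.98 to 80.4. All 6 cDC2 markers were lower in culture. The part of these in the result was not tested.

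**Figure D4:**
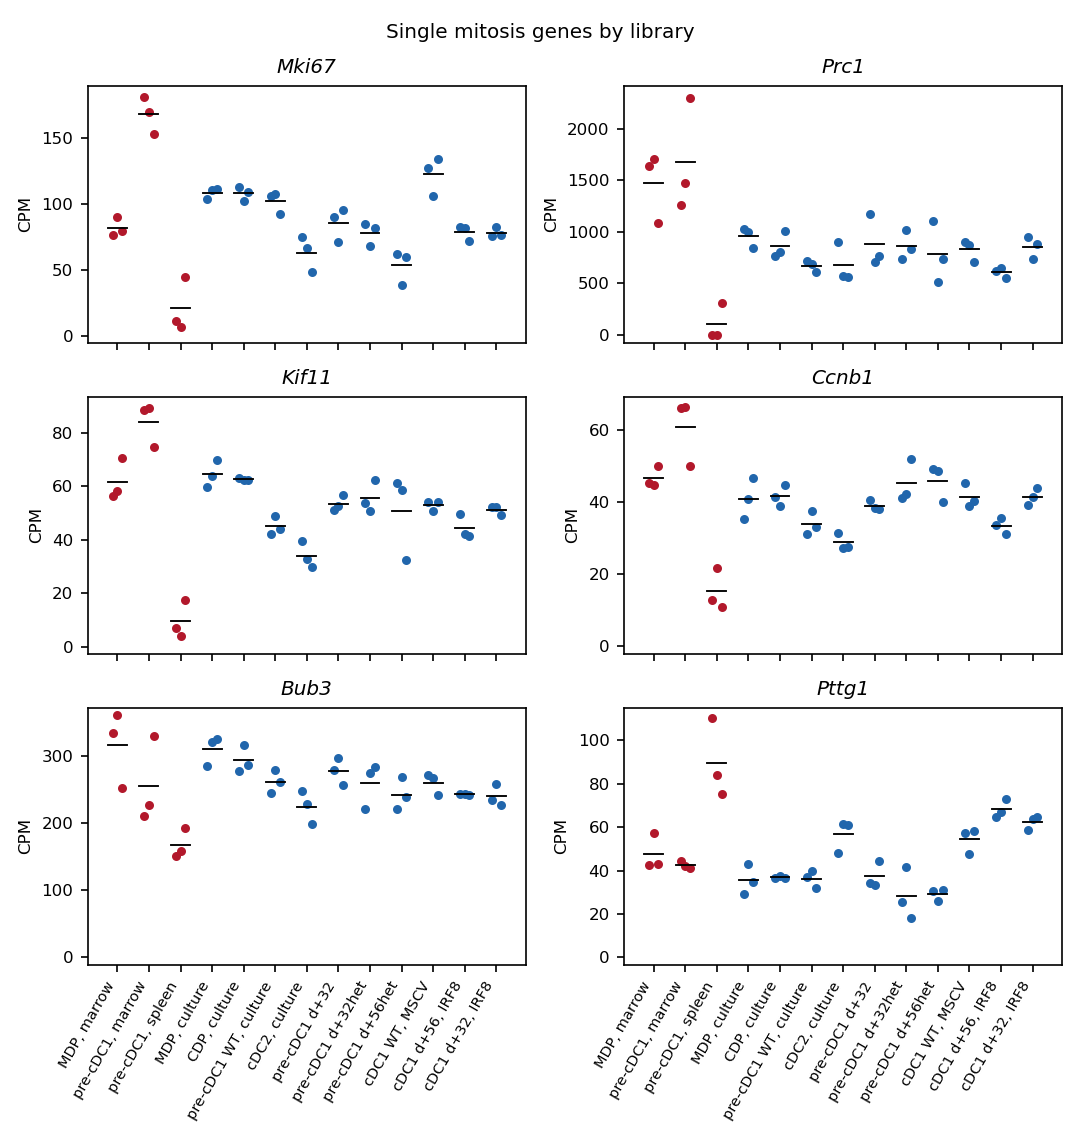
CPM of 6 mitosis genes by library in 13 groups of 3 (red, primary; blue, cultured; lines, group means; each panel on its own linear axis). Mki67, Prc1, Kif11 and Ccnb1 are lowest in splenic pre-cDC1, Bub3 varies least, and Pttg1 is highest in splenic pre-cDC1.

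The step from MDP to pre-cDC1 was tested for a difference between culture and bone marrow, as an interaction. For 23 members the step was more negative in culture (6.64% of 12043 genes) and for 0 more positive (4.78%), also at an unadjusted p under 0.05; DESeq2 called 33. The median interaction was -0.72 (log2) against -0.07 for all genes, and -0.02 for the DNA replication list. Mki67 went from 103, 110 and 111 CPM in cultured MDP to 106, 107 and 92.2 in cultured pre-cDC1, while in bone marrow it went from at most 89.6 to at least 153. Its interaction was -1.08 ± 0.16 (edgeR adjusted p = 0.00289). The other leading genes were Cenpe (-1.31 ± 0.19, edgeR adjusted p = 0.00244), Anln (-1.77 ± 0.27, 0.00289), Racgap1 (-1.12 ± 0.19, 0.00465) and Ndc80, the microtubule-binding kinetochore subunit (-1.10 ± 0.19, 0.00560). The highest value was that of Pttg1 (0.23, not called). The count was 14 without cultured MDP replicate 2, and 15 without bone marrow pre-cDC1 replicate 1 or 2, without cultured WT pre-cDC1 replicate 1 or 3, or with the replicate number as a block.

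Along the cultured series, MDP and CDP could not be separated by the members. By edgeR 0 were called in either direction (0.609% of 13292 genes were higher and 0.429% lower). The counts at an unadjusted p under 0.05 were 3 higher and 0 lower, beside 791 and 769 of all genes, and DESeq2 called 2. The median log2 fold change was 0.03, from -0.33 for Ttk, a checkpoint kinase, to 0.49 for Cdkn3, a phosphatase that acts on cyclin-dependent kinases.

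From CDP to WT pre-cDC1 in culture 21 members were lower (11.2% of 13292 genes) and 0 higher (12.1%), also at an unadjusted p under 0.05, and DESeq2 called 27. The median was -0.41 against -0.02 for all genes. By role, 8 of 10 kinetochore genes were called (median -0.68), 3 of 4 checkpoint genes (-0.60), 2 of 3 cytokinesis genes (-0.74), 3 of 6 cyclins and Cdk1 regulators (-0.36) and 3 of 8 kinesins (-0.41). Of the mitotic kinases and chromosomal passengers 1 of 7 was called (-0.39), of the anaphase-promoting complex and cohesin release genes 1 of 5 (-0.25), of the spindle microtubule genes 0 of 4 (-0.36) and of the chromosome genes 0 of 3 (-0.08), and the roles were not tested against each other. Spc24 of the Ndc80 complex held 112, 103 and 103 CPM in CDP and 61.1, 67.0 and 55.2 in pre-cDC1, and fell by 0.79 ± 0.11 (edgeR adjusted p = 0.000134). Ect2 held 183, 197 and 215 CPM in CDP and 72.7, 79.7 and 100 in pre-cDC1, and fell by 1.23 ± 0.16 (adjusted p = 0.000113, edgeR). Mad2l1, the checkpoint protein Mad2, fell by 0.77 ± 0.12 (0.000460), Nuf2 by 0.73 ± 0.13 (0.00101) and Kif15 by 0.99 ± 0.18 (0.00141). Groups did not overlap for Spc24 or Ect2. Cdk1 held 27.4, 27.2 and 28.2 CPM in CDP and 28.2, 28.5 and 25.9 in pre-cDC1, which overlapped. The highest fold change was that of Pif1 (0.03, not called). The count was 13 without WT pre-cDC1 replicate 1 or without CDP replicate 3. Of the 52 DNA replication genes 37 were lower and 0 higher, with a median of -0.61, and Mcm7, a subunit of the replicative helicase, fell by 0.97 ± 0.10 (edgeR adjusted p = 2.29e-05).

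Cultured cDC1, with 1 library, had 0 members called against WT pre-cDC1 by edgeR (1.01% of 13292 genes were higher and 1.26% lower), 1 higher and 1 lower at an unadjusted p under 0.05, and 1, higher, by DESeq2. The lone library is assumed to vary like the other groups. The median was -0.12, from Cenpm (-0.74) to Pttg1 (0.76 ± 0.20, edgeR adjusted p = 0.0678). In the same comparison 13 DNA replication genes were lower, with a median of -0.62, and Myc was higher by 2.59 ± 0.21 (adjusted p = 0.000227). The 1 library labelled cultured pre-cDC2 had 1 member higher than in CDP (7.35% of genes were) and 0 lower (3.42%), with 5 higher and 2 lower at an unadjusted p under 0.05 and 2 higher by DESeq2. Prc1 held 1626 CPM there against 769, 800 and 1007 in CDP (log2 0.92 ± 0.24, edgeR adjusted p = 0.0259), a call lost without CDP replicate 1 (0.0716) or 2 (0.0669). The count was 0 without CDP replicate 1. The 4 libraries with conflicting names bear on this arm. Kept under their titles, which their markers go against, they gave 6 called members, 3 in each direction. Prc1 was not among those members (log2 0.27, edgeR adjusted p = 0.601). The extremes were Pif1 (1.46) and Ttk (-1.06), neither called.

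Cultured cDC2 differed most from CDP. There 39 members were lower (16.8% of 13292 genes) and 1 was higher (16.3%), DESeq2 called 41, and the median was -0.69 against 0.00 for all genes. All 6 cyclins and regulators, all 4 checkpoint genes and 9 of 10 kinetochore genes were lower, but 1 of 4 spindle microtubule genes. The roles were not tested against each other, and they also differ in how many RefSeq transcripts their genes have. Spc24 held 36.0, 36.0 and 33.9 CPM in cDC2, below all CDP libraries, and fell by 1.59 ± 0.11 (edgeR adjusted p = 4.39e-07). Cenpa, the centromeric histone variant, held 523, 481 and 509 CPM in CDP and 290, 228 and 235 in cDC2, and fell by 1.01 ± 0.12 (edgeR adjusted p = 4.00e-05). Cdk1 held 18.2, 18.4 and 19.7 CPM in cDC2, also below all CDP libraries. Mad2l1 fell by 1.54 ± 0.12 (1.23e-06), Ect2 by 1.69 ± 0.16 (6.54e-06), Kif4, a chromokinesin, by 1.20 ± 0.12 (9.19e-06) and Nuf2 by 1.18 ± 0.13 (1.60e-05, edgeR adjusted p).

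Prc1, by contrast, held 900, 574 and 558 CPM in cDC2 and overlapped CDP. Pttg1 was again the exception in direction: it held 36.5, 37.4 and 36.8 CPM in CDP and 48.2, 61.5 and 60.8 in cDC2, and rose by 0.62 ± 0.15 (edgeR adjusted p = 0.00505), and the call held under every alternative tried, each library left out included. All 52 DNA replication genes were lower, with a median of -1.32. Of 36 genes of cell cycle entry and its regulators, 21 were lower and 7 higher by edgeR, with a median of -0.65. Ccnd1, a cyclin of cell cycle entry, was among the 7 and rose by 2.13 ± 0.16 (edgeR adjusted p = 7.06e-07). Summed mast cell and basophil markers were 129 to 286 CPM in cDC2 and 2.02 to 4.62 in CDP, with 6 of 7 markers higher, and their part in the result was not tested.

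**Figure D5:**
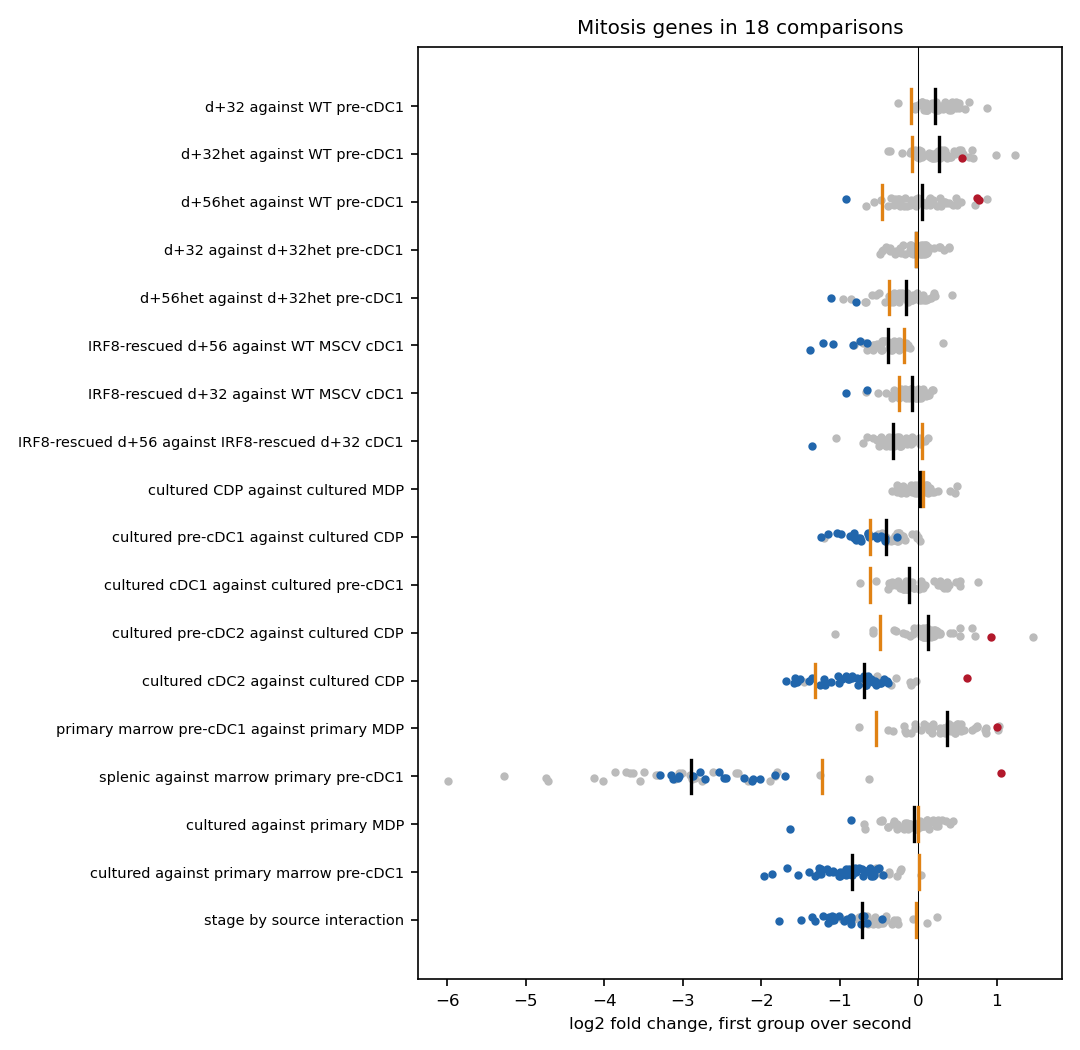
Log2 fold changes of the 50 mitosis genes in 18 comparisons, first group over second (blue, called lower; red, called higher; grey, not called; edgeR, adjusted p under 0.05). Black bars are the medians of the mitosis genes and orange bars those of 52 DNA replication genes, which lie farthest apart in splenic against bone marrow pre-cDC1 (-2.89 and -1.23), followed by bone marrow pre-cDC1 against MDP (0.37 and -0.54) and cultured against bone marrow pre-cDC1 (-0.84 and 0.01).

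Irf8 enhancer loss was compared with WT in cultured pre-cDC1. In d+32, 0 members were called by edgeR (2.75% of 11604 genes were higher and 1.77% lower). The counts at an unadjusted p under 0.05 were 4 higher and 0 lower, beside 1066 and 802 of all genes. DESeq2 called 2 members, both higher. The median was 0.21 against 0.00 for all genes, and 45 of 50 fold changes were positive, from Mki67 (-0.26) to Anln (0.88, adjusted p = 0.206). In d+32het 1 member was higher (2.31% of genes) and 0 lower (1.40%), by edgeR, with a median of 0.27. The counts at an unadjusted p under 0.05 were 11 higher and 0 lower, beside 1073 and 990 of all genes. Kif20b held 74.3, 55.4 and 68.3 CPM in WT and 99.5, 89.0 and 104 in d+32het, without overlap (log2 0.56 ± 0.13, edgeR adjusted p = 0.0464). The count was 0 without any 1 of the WT libraries or without d+32het replicate 2 or 3, and 3 without d+32het replicate 1. DESeq2 called 7 members, all higher. Anln had the highest fold change (1.24, adjusted p = 0.0706) and Mki67 the lowest (-0.38, 0.328).

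In d+56het, 1 member was lower than in WT (6.27% of genes) and 2 were higher (6.12%), shares of the 50 members below those of all genes. The median was 0.05, and DESeq2 called 4 in each direction. The counts at an unadjusted p under 0.05 were 4 lower and 8 higher, beside 1555 and 1527 of the 11604 genes. Mki67 held 106, 107 and 92.2 CPM in WT and 61.5, 38.3 and 59.5 in d+56het, without overlap, and fell by 0.93 ± 0.19 (edgeR adjusted p = 0.0108), a call kept under every alternative tried. Cks2 held 8.99, 8.74 and 9.51 CPM in WT and 16.8, 16.8 and 12.6 in d+56het, and rose by 0.77 ± 0.18 (edgeR adjusted p = 0.0195). Kif20a held 145, 144 and 151 CPM in WT and 200, 272 and 258 in d+56het, and rose by 0.74 ± 0.19 (adjusted p = 0.0325, edgeR). Both rises were lost on leaving out any 1 WT library, where the count was 1. The rise of Cks2 was also lost without d+56het replicate 1 or 2, and that of Kif20a without replicate 2 or 3. Ccnb1, at 31.1, 37.4 and 33.1 CPM in WT and 49.0, 48.5 and 40.0 in d+56het, did not overlap either but was not called. The highest fold change was that of Cdkn3 (0.88, adjusted p = 0.0891).

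Of the 52 DNA replication genes 20 were lower in d+56het and 0 higher, by edgeR, with 29 and 1 at an unadjusted p under 0.05 and a median of -0.46. Mcm6, a helicase subunit, fell by 0.93 ± 0.089 (adjusted p = 0.000165) and Uhrf1, which maintains DNA methylation, by 1.08 ± 0.15 (0.00146). Summed pDC markers were 1863 to 2745 CPM in d+56het and 298 to 407 in WT, and 5 of 6 were higher. In d+32 the summed mast cell and basophil markers were 120 to 439 CPM against 1.41 to 15.1 in WT, with Tph1 at 0 in WT. Together with the cDC1 and cDC2 markers above, the part of these in the results was not tested.

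The 2 deletions were also set against d+32het. Between d+32 and d+32het 0 members were called by edgeR (0.0345% of genes in each direction), and DESeq2 called 1. The counts at an unadjusted p under 0.05 were 0 higher and 2 lower, beside 578 and 457 of the 11604 genes. The median was -0.03, from Kif20b (-0.49) to Pttg1 (0.39). Between d+56het and d+32het 2 members were lower (0.422% of genes) and 0 higher (0.103%), by edgeR, with a median of -0.15. At an unadjusted p under 0.05, 11 were lower and 0 higher, beside 893 and 723 of the 11604 genes. DESeq2 called 3 lower and 0 higher. Kif20b held 49.7, 57.4 and 59.9 CPM in d+56het, below all d+32het libraries (log2 -0.79 ± 0.13, edgeR adjusted p = 0.0369). Knl1, the kinetochore scaffold that recruits checkpoint proteins, held 56.8, 51.8 and 40.6 CPM in d+56het and 90.5, 108 and 126 in d+32het (-1.11 ± 0.19, adjusted p = 0.0371, edgeR). The count was 0 or 1 with any 1 library left out: 1 without replicate 1 of either group, and 0 without replicate 2 or 3 of either. Cdkn3 was highest (0.43, not called).

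Cultured cDC1 with retroviral IRF8 were compared with WT cDC1 carrying MSCV. In d+56 cells 6 members were lower (0.430% of 11620 genes) and 0 higher (1.22%), by edgeR. The counts at an unadjusted p under 0.05 were 35 lower and 1 higher, beside 766 and 968 of all genes. The median was -0.39 against -0.01 for all genes, and 49 of 50 fold changes were negative. Mki67 held 127, 106 and 134 CPM in WT and 82.1, 81.4 and 71.9 in d+56, without overlap (log2 -0.65 ± 0.11, edgeR adjusted p = 0.0295). Cdkn3 held 39.9, 46.2 and 45.8 CPM in WT and 16.6, 21.8 and 18.7 in d+56 (-1.22 ± 0.20, adjusted p = 0.0256, edgeR). Pif1, Aurka, Cenpm and Knl1 were lower by 1.38, 0.75, 1.09 and 0.83 (edgeR adjusted p = 0.0298, 0.0321, 0.0375 and 0.0455). Pttg1 was the 1 positive member (0.32 ± 0.11, adjusted p = 0.198). DESeq2 called 20 lower and 1 higher. The edgeR count depended on single libraries: it was 0 without WT replicate 1 or without any 1 of the d+56 libraries, 1 without WT replicate 3 and 2 without WT replicate 2. Of the DNA replication genes 0 were called by edgeR, with 10 lower and 0 higher at an unadjusted p under 0.05 and a median of -0.19. Irf8 itself did not separate the 2 groups (log2 0.01, edgeR adjusted p = 0.985). In cells given retroviral IRF8, Irf8 counts may include transcript from the retrovirus, which gene counts cannot tell apart from the cell's own.

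In d+32 cells with IRF8 2 members were lower than in WT with MSCV (0.947% of genes) and 0 higher (1.13%), by edgeR, with a median of -0.09. At an unadjusted p under 0.05, 6 were lower and 0 higher, beside 974 and 983 of the 11620 genes. DESeq2 called 4 members, all lower. Mki67 held 75.8, 82.2 and 75.9 CPM, below all WT libraries (log2 -0.65 ± 0.11, edgeR adjusted p = 0.0266), and Knl1 held 40.9, 61.8 and 50.8 against 111, 95.8 and 81.7 (-0.92 ± 0.16, adjusted p = 0.0325, edgeR). Pttg1 was again highest (0.19, not called). Irf8 was lower there than in WT with MSCV (-1.42 ± 0.098, edgeR adjusted p = 0.000795). The count was 1 without WT replicate 2 or 3 or d+32 replicate 2, and 0 without WT replicate 1 or d+32 replicate 1 or 3. Both rescued groups share the same WT libraries, so their values are set side by side and not related. Directly compared, d+56 cells had 1 member lower than d+32 cells (0.430% of genes) and 0 higher (0.620%), by edgeR, with a median of -0.32. At an unadjusted p under 0.05, 23 were lower and 0 higher, beside 719 and 827 of the 11620 genes. DESeq2 called 11 members, all lower. Pif1 held 12.2, 15.2 and 14.6 CPM in d+56 and 38.0, 34.4 and 35.3 in d+32 (log2 -1.36 ± 0.24, edgeR adjusted p = 0.0387). Pif1 was not called on leaving out any 1 of the 6 libraries (adjusted p 0.0753 to 0.144), and without d+32 replicate 1 another member was called in its place. Irf8 was higher in d+56 than in d+32 cells (log2 1.44 ± 0.098, edgeR adjusted p = 0.00112). Summed cDC2 markers were 66.4 to 124 CPM in WT with MSCV, 180.8 to 248.9 in d+56 and 310 to 532 in d+32, without overlap. Of 6 cDC2 markers 2 were higher than in WT in d+32, and in d+56 0 were (edgeR; 3 at an unadjusted p under 0.05 in d+56). Summed cDC1 markers were 2246 to 2588 CPM in d+32, below the 3008 to 3355 of WT (1 of 6 called lower), and 2962 to 3395 in d+56 (1 of 6 called higher). The part of these differences in the results was not tested.

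Counts per base differed by the number of transcripts a gene has. Over all genes, the 99th percentile of mean counts per exonic base was 0.812 for 7005 genes with 1 RefSeq transcript and 6.26 for 13494 genes with 2 or more. Of the members, 14 had 1 transcript and reached at most 0.595 counts per base, while 36 had 2 or more and reached 3.29. The median ratio of highest to lowest group mean was 4.78 for the 14 and 8.29 for the 36, and the median log2 fold change from bone marrow to spleen was -2.20 and -3.03. In cultured cDC2 against CDP all 14 and 26 of the 36 were called. The part of this in the results was not tested.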

How the data were processed

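RNA from sorted mouse cells was extracted with RNeasy Micro and made into libraries with SMART-Seq HT and Nextera XT, per the labels' protocols. The builds mm10 and GRCm38 and, as tools, RSEM 1.3.3, STAR 2.7.7a and Picard 2.25.0 are named in the submitters' processing notes. The authors deposited expected counts, estimated per gene, for 21000 genes in each of 47 libraries; 22 to 66 values per library were not whole, and all were rounded. No 2 replicates agreed within sampling noise.

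Counts were tested with edgeR 4.0.16 in R 4.3.3 (TMM scaling, filterByExpr, quasi-likelihood F test, Benjamini-Hochberg adjustment over all genes tested, threshold 0.05), with limma 3.58.1 and DESeq2 1.42.0 installed and DESeq2 used as an alternative. Fits pooled related groups: cultured pre-cDC1 genotypes, rescued cDC1, cultured WT cells, primary cells, and MDP with pre-cDC1 of both sources. SE was taken as the size of each log2 fold change over the square root of its F. The script was tested on simulated counts. CPM was scaled by TMM over all libraries. Groups came from sample titles and characteristics, and 4 libraries with conflicting names were left out of the tests. Named in each comparison are up to 5 called members with the smallest adjusted p in each direction, called members opposite to the median, the highest and lowest fold, anchor genes of each role, and up to 4 called genes of other lists; further members that illustrate a point were chosen after their values were seen. Members and lists were chosen with earlier results of these data known. Alternatives were DESeq2, edgeR with DESeq2's size factors, all genes kept without the low-count filter, a replicate block, only the groups compared, conflicting libraries under their titles, each library left out, and, added after seeing the data, replicate 3 of all primary groups left out.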

Additional observations from a re-analysis of the deposited data

Results flagged for a closer look

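The differences below were taken up because the same contrast gave different effects in 2 settings, by a test of the difference itself. The step from MDP to pre-cDC1 was more negative in culture than in bone marrow for 23 members (edgeR, adjusted over 12043 genes). Among the named members the interaction on the log2 scale was -1.31 for Cenpe, -1.77 for Anln, -1.075 for Mki67, -1.12 for Racgap1, -1.10 for Ndc80, -0.91 for Kif11, -0.74 for Bub1b, -0.66 for Plk1 and -0.69 for Top2a. Of the 23 calls, 13 held whichever library was left out, and those of Bub1b, Plk1 and Top2a did not. Between heterozygous losses, d+56het against d+32het pre-cDC1 differed in 2 members, Kif20b (-0.79) and Knl1 (-1.11). Between the rescued cDC1, d+56 against d+32 differed in 1 member, Pif1 (-1.36). Of the calls for Kif20b, Knl1 and Pif1, 0 held in every fit with 1 library left out.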

How the results depend on the processing

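Of the alternatives for single members, 1686 kept their direction and their side of the threshold, 355 kept the direction and lost the call, and 0 reversed. Counts of called members are given here where they moved by over 1.5 times, and the cause was not tested. The share of all genes called under each alternative was not computed, so a changed count may not be particular to the members. DESeq2 gave 2 for d+32 against WT, 7 for d+32het, 8 for d+56het, 1 for d+32 against d+32het, 21 for rescued d+56, 4 for rescued d+32, 11 for rescued d+56 against d+32, 2 for CDP against MDP, 1 for cDC1, 2 for pre-cDC2, 29 for spleen against bone marrow and 6 for cultured against primary MDP. Its size factors in edgeR gave 1 for cDC1 and 1 for cultured against primary MDP, and no filter gave 0 for d+32het and 1 for the MDP comparison. With only the groups compared in the fit, the counts were 1 for d+32, 0 for d+32het, 0 for d+56het against d+32het, 0 for rescued d+32, 2 for pre-cDC2, 10 for bone marrow pre-cDC1 against MDP, 8 for spleen and 1 for the MDP comparison. Conflicting libraries under their titles gave 6 for pre-cDC2, and leaving out replicate 3 of all primary groups gave 6 for the MDP comparison.

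Replicate numbers do not pair the samples: deviations of same-numbered libraries correlated at -0.0815 to 0.110, with 1 pair over 0.1. With the replicate block the counts were 0 for d+32het, 0 for d+56het against d+32het, 3 for rescued d+56, 0 for rescued d+32, 0 between the rescued groups, 0 for bone marrow pre-cDC1 against MDP, 10 for spleen, 1 for the MDP comparison and 15 for the interaction.

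With 1 library left out, counts ran from 0 to 0 for d+32, d+32 against d+32het, CDP against MDP and cDC1, 0 to 3 for d+32het, 1 to 3 for d+56het, 0 to 1 for d+56het against d+32het, 0 to 2 for rescued d+56, 0 to 1 for rescued d+32 and between the rescued groups, 13 to 22 for pre-cDC1 against CDP, 0 to 1 for pre-cDC2, 36 to 46 for cDC2, 0 to 1 for bone marrow pre-cDC1 against MDP, 8 to 32 for spleen, 0 to 3 for the MDP comparison, 34 to 45 for cultured against bone marrow pre-cDC1 and 14 to 31 for the interaction. The summed level as a percentage of cultured WT pre-cDC1 moved for rescued d+32 cDC1 from 123.7 to 127.7 with DESeq2 size factors and to 117.3 with the median of log2 CPM, which also moved cultured MDP from 138.6 to 131.8 and primary MDP from 156.2 to 134.1. Among groups of 1 library it moved primary CDP from 225.7 to 148.9, below bone marrow pre-cDC1 at 175.0, and the library labelled cultured pre-cDC2 from 170.8 to 131.3.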
